A study of Homo sapiens with 9 samples.

Results

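Ubiquitin-conjugating E2 enzymes were taken as every protein-coding gene whose symbol starts with UBE2 among the genes measured on 9 expression arrays. Of 32 UBE2 symbols in the array's probe table, 6 were antisense, divergent or pseudogene symbols and were left out, which gave 26 E2 genes of 19775 named genes. Each gene was represented by 1 probe set, the one with the highest mean log2 signal over the 9 arrays among those assigned to a single gene. Of the 26, 24 were bright enough to be tested, among 12587 tested genes. The 24 comprised 3 mitotic E2s (UBE2C, UBE2S and UBE2T), 3 E2s of the endoplasmic reticulum (ER; UBE2G2, UBE2J1 and UBE2J2) and 18 others. The Entrez gene numbers of the mitotic genes are 11065 for UBE2C, 27338 for UBE2S and 29089 for UBE2T, and those of the ER genes are 7327 for UBE2G2, 51465 for UBE2J1 and 118424 for UBE2J2. Both untested genes were dim: UBE2QL1 had a signal of 0.406 to 3.72 and UBE2U of 1.24 to 23.3, and neither passed the median signal of any array. UBE2D1, UBE2D2, UBE2D3, UBE2L3, UBE2M, UBE2V1 and UBE2W were not analysed here.

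The RNA came from U87, an established human glioma line, cultured in DMEM and transfected with Lipofectamine RNAiMAX. The groups received a control duplex labelled miR-control, miR-376a*A, the unedited form of a microRNA, or miR-376a*G, its edited form. Every group received 50 nM of duplex for 72 h and had 3 arrays that the labels call biological replicates. The labels do not say which cultures or days they came from, so p-values measure the spread between these arrays. A single line was used and untransfected cells are not among the 9 arrays.

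Ubiquitin is activated by an E1 enzyme, passed to an E2 and then joined to a substrate with the help of an E3 ligase, so the E2 helps to set which chain is built. UBE2C starts and UBE2S lengthens the chains that the anaphase-promoting complex (APC/C) places on mitotic proteins. UBE2T serves the Fanconi anaemia pathway, where with the ligase FANCL it marks FANCD2 and FANCI at DNA crosslinks. UBE2G2, UBE2J1 and UBE2J2 act at the ER membrane, where misfolded proteins are sent to the proteasome.

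The microRNA strand the study is about is shown first, since its unedited and edited forms were transfected. It carries the present name hsa-miR-376a-5p in RefSeq (GRCh38.p14, chr14:101040788-101040809, plus strand), and the capitals mark its seed, bases 2 to 8, in the unedited form. The labels do not give the sequence of either duplex.
hsa-miR-376a-5p: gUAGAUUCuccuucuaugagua

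The promoters shown are those of UBE2S and UBE2T. Both genes rose on miR-376a*G arrays against control, as given below, and their windows hold letters that were searched for. Each window is the 250 bases before the start in RefSeq (GRCh38.p14). Of the 6 mitotic and ER genes, 5 matched the promoter table: UBE2S, UBE2T, UBE2G2, UBE2J1 and UBE2J2. Both strands were searched for CCAAT, for TTTGAA, a form of the cell cycle homology region, and for GGCGGGAA, an E2F motif. None of these motifs contains another. CCAAT was found in 32%, TTTGAA in 13.3% and GGCGGGAA in 2.72% of 35116 promoter windows of this length. The UBE2T window held TTTGAA 153 to 148 bases before the start and CCAAT at 124 to 120 and at 73 to 69. The UBE2S window held CCAAT on the opposite strand, 191 to 187 bases before the start. In the windows of UBE2G2, UBE2J1 and UBE2J2 none of the motifs was found. Capitals mark the matches, which describe letters only.
UBE2S, chr19:55407789-55408038, minus strand: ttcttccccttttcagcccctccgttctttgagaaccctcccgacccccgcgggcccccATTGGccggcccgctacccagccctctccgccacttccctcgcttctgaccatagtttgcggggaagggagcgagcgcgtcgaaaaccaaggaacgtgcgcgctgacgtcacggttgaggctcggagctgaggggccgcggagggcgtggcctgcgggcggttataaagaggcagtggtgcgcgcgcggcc
UBE2T, chr1:202341937-202342186, minus strand: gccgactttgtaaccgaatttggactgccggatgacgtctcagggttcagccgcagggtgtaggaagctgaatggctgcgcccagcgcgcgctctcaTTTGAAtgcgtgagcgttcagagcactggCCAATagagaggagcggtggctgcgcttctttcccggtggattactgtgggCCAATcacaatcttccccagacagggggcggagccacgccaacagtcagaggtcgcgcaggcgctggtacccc

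The arrays did not all keep to their labels. Replicate 1 of miR-376a*A resembled control replicates 2 and 3 (Pearson's r across tested genes, which are not independent, of 0.987 and 0.990) more than the rest of its own group (0.925 and 0.934). Replicate 1 of the control likewise resembled the remaining miR-376a*A arrays (0.990 and 0.982) more than its own group (0.935 and 0.934). For 20 and 18 of the 24 E2 genes respectively, these 2 arrays lay nearer to the mean of the other group's remaining arrays than to that of their own. The same count was not made over all tested genes, so it says nothing particular to the E2 genes. Groups are given as labelled, and results are given with all 9 arrays and, where they rest on these 2, again without both. Markers of the line were bright throughout: VIM, CD44, SPARC, FN1, TNC and CAV1 were all tested, and their summed signal was 8853 to 9444 on miR-376a*G arrays, 11490 to 14030 on control arrays and 12490 to 16730 on miR-376a*A arrays. None of 3 epithelial markers (summed signal 16.6 to 50.4) or of the 2 leukocyte markers with a probe set (7.65 to 31.7) was bright enough to be tested. Of 3 endothelial markers only PECAM1 was tested (summed signal 53.4 to 158.8). Of 3 neuronal markers SYT1 and SNAP25 were tested, with a summed signal of 257 to 275 on miR-376a*G arrays against 343.7 to 1679 on control arrays and 409.9 to 1984 on miR-376a*A arrays. The part of these marker differences in the E2 results was not tested. In RNA from whole cultures, fewer cells of a kind and less RNA per cell cannot be told apart.

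The edited form was first compared with the control, which asks what miR-376a*G changes. All 3 mitotic E2 genes rose, by 2.26-fold to 2.91-fold, while the 18 other E2 genes included 5 that fell and 1 that rose. Of the 3 ER genes, UBE2J2 rose and UBE2G2 and UBE2J1 were not called. In all, 10 of 24 E2 genes were called at a limma adjusted p under 0.05, 5 higher and 5 lower. Over all 12587 genes 33.4% were called, 18% higher and 15.4% lower, so the E2 count lay near the background in both directions. Differences are between means of log2(signal + 1), on signals that the authors had already scaled to a common level.

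UBE2C, the chain-initiating E2 of the APC/C, had signals of 1600, 1672 and 1543 on the miR-376a*G arrays, 677, 716 and 736 on the control arrays, and 588, 714 and 592 with miR-376a*A. Every miR-376a*G array was above every other array, and the other groups overlapped. The group means were 1605 ± 64.5 for miR-376a*G, 709.5 ± 29.9 for the control and 631 ± 71.1 for miR-376a*A (SD, n = 3). The log2 difference from control was 1.18 (SE 0.10, limma adjusted p = 4.7e-05).

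The chain-lengthening E2 gene UBE2S had signals of 1425, 1524 and 1432 on the miR-376a*G arrays, against 603, 656 and 609 for the control and 623, 583 and 546 for miR-376a*A. The miR-376a*G arrays again stood above all others with no overlap. UBE2S differed from control by 1.23 (log2, SE 0.09, limma adjusted p = 2.2e-05), a linear ratio of 2.34.

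UBE2T, the E2 of the Fanconi pathway, read 694, 815 and 663 for miR-376a*G, 155, 291 and 334 for the control and 325, 180 and 168 for miR-376a*A. The low control array and the high miR-376a*A array are the replicates 1 that stand apart. UBE2T had the largest log2 difference from control among the E2 genes that rose, 1.54, and also the widest error (SE 0.32, 95% interval 0.82 to 2.27, limma adjusted p = 0.0059). Without both arrays it was 1.21 (SE 0.11, adjusted p = 4.4e-06), against 1.14 for UBE2C and 1.21 for UBE2S. The median over the 3 mitotic genes was 1.23 with all arrays and 1.21 without both, beside a median of 0.12 over all tested genes in each case.

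UBE2J2, a membrane-anchored E2 of the ER, was the ER gene that rose. Its signals were 812, 878 and 813 for miR-376a*G, 508, 460 and 471 for the control and 469, 533 and 511 for miR-376a*A. All 3 miR-376a*G arrays lay above the other 6, with a log2 difference from control of 0.80 (SE 0.09, limma adjusted p = 0.00029). Its 3 tested probe sets were all called higher.

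UBE2J1, the related membrane-anchored E2, read 632, 643 and 631 for miR-376a*G, 660, 773 and 796 for the control and 856, 632 and 821 for miR-376a*A. The miR-376a*G arrays lay just below the control arrays, and the difference of -0.22 (95% interval -0.51 to 0.07, adjusted p = 0.22) was not called. Without both arrays UBE2J1 fell by 0.30 (SE 0.10, adjusted p = 0.027), though with all 9 arrays it stood at 0.18 under scaling to the hybridisation controls and at 0.08 under scaling to the poly-A controls. UBE2G2, which partners ER-resident ligases, read 394, 409 and 371 for miR-376a*G, 256, 396 and 394 for the control and 437, 255 and 370 for miR-376a*A. Its groups overlapped, at a difference of 0.20 from control (95% interval -0.31 to 0.71) with all arrays and -0.01 without both. The ER median accordingly went from 0.20 to -0.01, and with 3 genes it is simply that of UBE2G2.

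**Figure D1:**
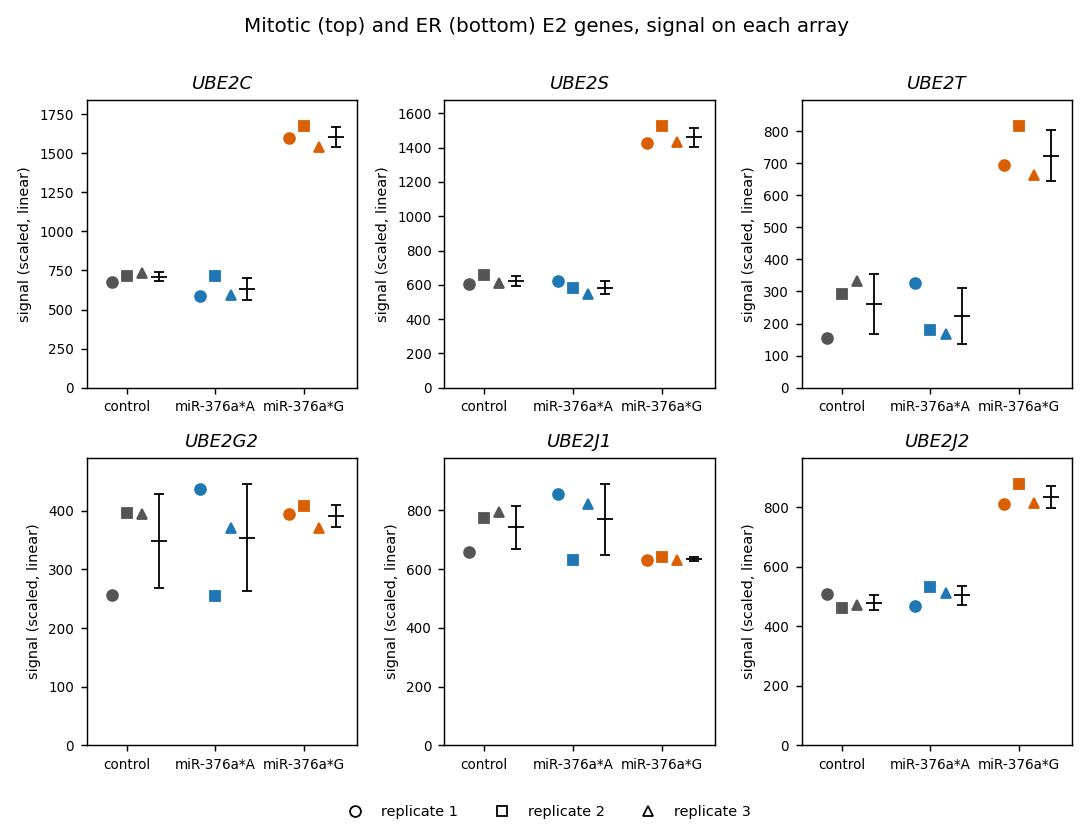
Signal (scaled, linear) of the 3 mitotic and 3 ER E2 genes on each array, with circles, squares and triangles for replicates 1, 2 and 3 and bars for the mean ± SD of each labelled group. The miR-376a*G arrays of UBE2C, UBE2S, UBE2T and UBE2J2 lie above all other arrays, while those of UBE2G2 and UBE2J1 overlap at least 1 other group.

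The largest difference of any E2 gene was a fall. UBE2L6, the E2 that conjugates the interferon-induced modifier ISG15, had signals of 270, 335 and 279 on the miR-376a*G arrays, 1011, 1173 and 1320 on the control arrays and 1220, 1194 and 1009 on the miR-376a*A arrays. Its highest miR-376a*G signal was less than the lowest signal of either other group. UBE2L6 fell by 1.98 on the log2 scale (SE 0.13, limma adjusted p = 2e-05), to a linear ratio of 0.253. Without both arrays that stand apart it fell by 2.08 (adjusted p = 1.7e-07). UBE2Z, which is charged with ubiquitin and the modifier FAT10 by the E1 enzyme UBA6, read 386, 367 and 406 for miR-376a*G, 725, 804 and 714 for the control and 780, 741 and 766 for miR-376a*A. UBE2Z fell by 0.95 (SE 0.09, adjusted p = 9.9e-05), its miR-376a*G arrays lying below all others, and 2 of its 3 tested probe sets were called. Both tested E2 genes of the ISG15 and FAT10 systems thus fell.

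UBE2A and UBE2B encode the closely related Rad6-type E2s, which with RAD18 mark the sliding clamp PCNA at stalled forks and with RNF20 and RNF40 mark histones. UBE2B read 399, 413 and 418 for miR-376a*G, 1090, 892 and 915 for the control and 793, 1148 and 948 for miR-376a*A. It fell by 1.23 (SE 0.14, limma adjusted p = 0.00026), with 5 of its 6 tested probe sets in that direction and 4 of them called. UBE2A read 632, 675 and 667 for miR-376a*G, 833, 929 and 965 for the control and 950, 859 and 896 for miR-376a*A. Its miR-376a*G arrays lay below all others, and it fell by 0.46 (SE 0.09, adjusted p = 0.0038). Scaling to the hybridisation controls left UBE2A at -0.06 and to the poly-A controls at -0.16, both uncalled.

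UBE2N, which builds signalling chains with a UBE2V partner, differed by 0.07 from control (95% interval -0.22 to 0.37) and was not called. It read 829, 935 and 815 for miR-376a*G and 690, 866 and 904 for control. Its probe sets disagreed, one at 0.33 (adjusted p = 0.024) and another at -0.56 (adjusted p = 0.18). Without both arrays that stand apart these stood at 0.29 (adjusted p = 0.0065) and -0.80 (adjusted p = 5.7e-05). Its partner UBE2V2 read 1146, 1355 and 1129 for miR-376a*G, 1351, 778 and 835 for the control and 714, 1335 and 1279 for miR-376a*A. In both of the latter groups replicate 1 was far from replicates 2 and 3, and UBE2V2 differed by 0.33 (SE 0.27, adjusted p = 0.37). Without both arrays UBE2V2 rose by 0.58 (adjusted p = 0.00032), but its 2 dimmer probe sets lay at -0.28 and -0.18 with all arrays, so its probe sets disagree in direction.

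Of the remaining E2 genes, UBE2H, which serves the multi-subunit CTLH ligase, read 615, 564 and 613 for miR-376a*G, 1038, 906 and 913 for the control and 1010, 1071 and 1035 for miR-376a*A. UBE2H fell by 0.67 (SE 0.09, limma adjusted p = 0.00051), and all 8 of its tested probe sets were lower, 7 of them called. Scaled to the hybridisation controls it was at -0.27 and not called. UBE2Q1 was the only other E2 gene to rise, with 601, 597 and 582 for miR-376a*G against 476, 474 and 497 for the control and 524, 495 and 549 for miR-376a*A. The miR-376a*G arrays lay above all others, but the difference from control was small, 0.30 (SE 0.09, adjusted p = 0.025). That call was lost without any 1 of the 6 miR-376a*G and control arrays (adjusted p = 0.05 to 0.089), with arrays centred on their medians (0.07), with a block on the replicate number (adjusted p = 0.088) and with the mean of its probe sets (adjusted p = 0.24).

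**Figure D2:**
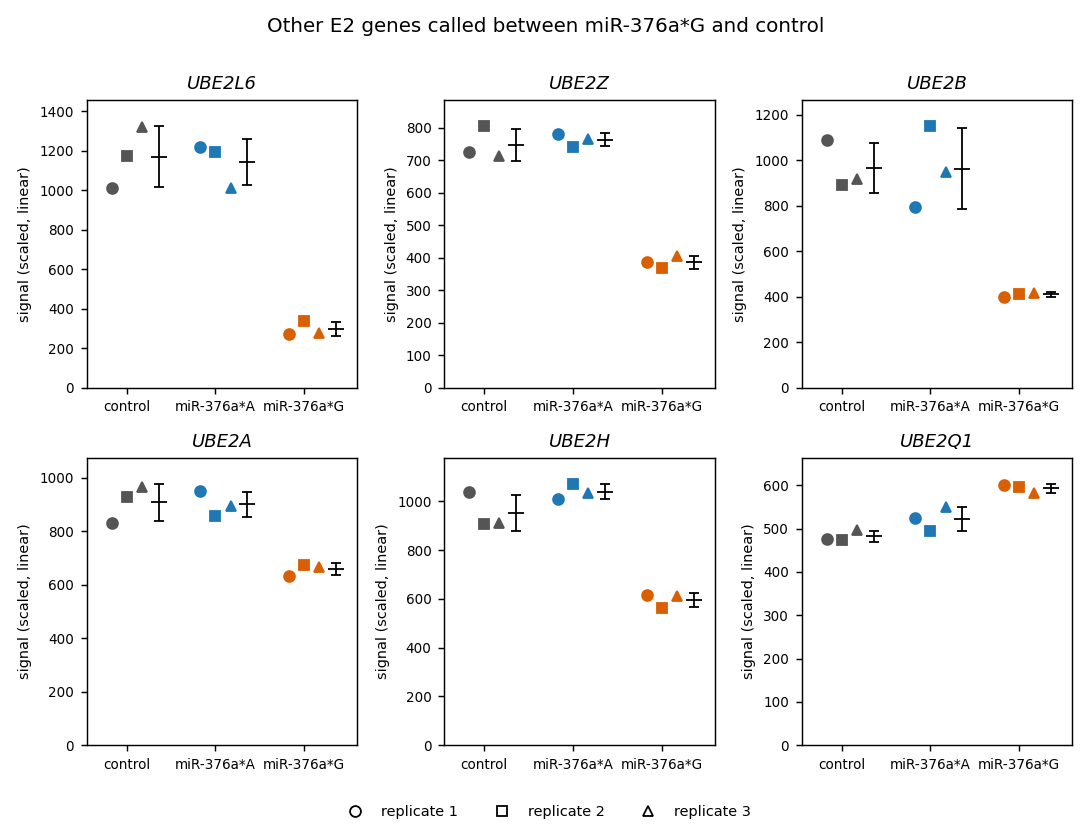
Signal (scaled, linear) of the 6 other E2 genes called between miR-376a*G and control, plotted per array with the mean ± SD of each labelled group. UBE2L6, UBE2Z, UBE2B, UBE2A and UBE2H are lower and UBE2Q1 higher on every miR-376a*G array than on any control array.

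The 12 other E2 genes not called between miR-376a*G and control ranged from -0.49 for UBE2E3 to 0.36 for UBE2D4. No gene of the UBE2D and UBE2E families (4 tested) or of the group that serves cullin ligases and NEDD8 (UBE2F, UBE2G1 and UBE2R2) was called with all arrays. An unadjusted p under 0.05 was reached by 2 and 1 of them, near the share over all genes, 5541 of 12587. UBE2E3 read 961, 1011 and 1016 for miR-376a*G, 1707, 1257 and 1283 for the control and 1183, 1857 and 1662 for miR-376a*A. All its miR-376a*G arrays were the lowest, at -0.49 (SE 0.17, adjusted p = 0.056) with all arrays and -0.35 (SE 0.08, adjusted p = 0.0027) without both. The NEDD8 E2 gene UBE2F read 305, 309 and 306 for miR-376a*G, 447, 364 and 380 for the control and 339, 400 and 459 for miR-376a*A, at -0.37 (adjusted p = 0.066) and, without both, -0.28 (adjusted p = 0.017). All 4 tested UBE2F probe sets were lower with all arrays, and 2 of them were called, at -0.39 (adjusted p = 0.045) and -0.47 (adjusted p = 0.038). UBE2D4 read 358, 293 and 350 for miR-376a*G, 272, 249 and 256 for the control and 206, 263 and 209 for miR-376a*A, at 0.36 (adjusted p = 0.073) and, without both, 0.39 (adjusted p = 0.017). Its direction depends on the probe set, since 3 of its 5 tested probe sets stood at -0.11, -0.25 and -0.36 without both arrays. UBE2E2 read 342, 309 and 346 for miR-376a*G and 327, 286 and 247 for control, which overlap, at 0.22 (adjusted p = 0.25) and, without both, 0.32 (adjusted p = 0.033). These 4 genes, UBE2J1 and UBE2V2 made up the 6 E2 genes called without both arrays beyond the first 10, for a total of 16, 8 higher and 8 lower. The first 10 were called again in the same direction, with UBE2J2 at 0.84, UBE2Q1 at 0.29, UBE2Z at -0.97, UBE2B at -1.14, UBE2H at -0.61 and UBE2A at -0.53. The background then was 56.1% of all genes, 31.2% higher and 25% lower.

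UBE2E1 and UBE2R2 were called in no comparison with either set of arrays. UBE2E1 read 1179, 1475 and 1086 for miR-376a*G, 1043, 1006 and 1252 for the control and 1121, 1117 and 1086 for miR-376a*A. Its groups overlapped, at 0.17 from control (95% interval -0.11 to 0.46). UBE2G1 was at 0.11 and UBE2R2 at 0.00 (95% interval -0.42 to 0.43). UBE2O, a large enzyme with both E2 and E3 activity, read 61.8, 77 and 69 for miR-376a*G, 93.9, 96.4 and 83.9 for the control and 77.7, 118 and 93.5 for miR-376a*A. Its miR-376a*G arrays were below all others without a call against control (-0.40, adjusted p = 0.11). UBE2K was at 0.04 by its chosen probe set, while another of its probe sets was called at 0.66 (adjusted p = 0.048). Over the 18 other E2 genes the median was -0.15, and -0.03 without both arrays.

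**Figure D3:**
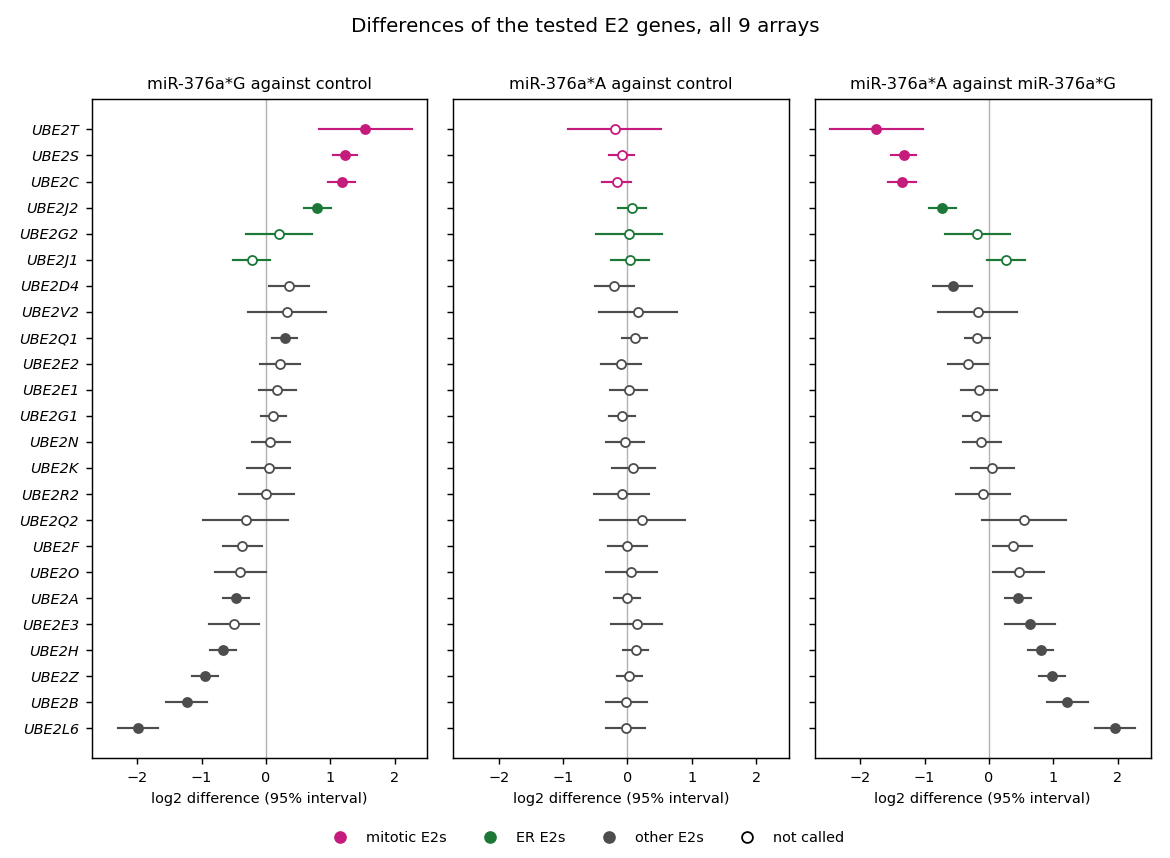
Log2 differences of the 24 tested E2 genes in the 3 comparisons with all 9 arrays, as points with 95% intervals from limma, filled where the adjusted p was under 0.05. UBE2T, UBE2S and UBE2C lie highest and UBE2L6 lowest against control on the miR-376a*G arrays, and no gene is filled between miR-376a*A and control.

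All changes are relative to the rest of each array. The median of all genes between miR-376a*G and control moved from 0.12 to -0.12 when arrays were centred on their medians, to 0.51 when they were scaled to the hybridisation controls, and to 0.42 with the poly-A controls. The E2 calls then split into 4 higher and 8 lower, 13 and 3, and 9 and 4. The shares of all genes called under these scalings are not given here, so these splits cannot be set against a background. The mean log2 signal of the hybridisation controls was 7.12 to 7.29 on miR-376a*G arrays, 7.51 to 7.70 on control arrays and 7.82 to 7.92 on miR-376a*A arrays. UBE2C, UBE2S, UBE2T and UBE2J2 were called higher, and UBE2L6, UBE2Z and UBE2B lower, under each of these 3 scalings and under quantile normalization.

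The forms were next set against each other, a comparison that shares the miR-376a*G arrays with the one above. Of 24 E2 genes 11 were called, 6 higher and 5 lower on the miR-376a*A arrays, beside 38.2% of all genes, 16.4% higher and 21.8% lower. UBE2C (-1.35, SE 0.10), UBE2S (-1.32, SE 0.09), UBE2T (-1.75, SE 0.32) and UBE2J2 (-0.73, SE 0.09) were lower, at limma adjusted p = 2.4e-05, 1.6e-05, 0.0028 and 0.00042. Higher on the miR-376a*A arrays were UBE2L6 (1.95, SE 0.13, adjusted p = 2.1e-05), UBE2B (1.21, SE 0.14, 0.00025), UBE2Z (0.98, SE 0.09, 7.9e-05), UBE2H (0.80, SE 0.09, 0.00019) and UBE2A (0.45, SE 0.09, 0.0038). UBE2D4 was lower (-0.56, SE 0.14, adjusted p = 0.011) and UBE2E3 higher (0.63, SE 0.17, adjusted p = 0.019). The UBE2E3 call was lost without any 1 of miR-376a*A replicates 2 and 3 or the 3 miR-376a*G arrays (adjusted p = 0.052 to 0.07). Scaling ended 3 further calls, those of UBE2H with the hybridisation controls (0.13), UBE2A with the poly-A controls (0.28) and UBE2D4 with arrays centred on their medians (-0.32), and with the hybridisation controls UBE2A stood at -0.22. UBE2Q1, at -0.18 (95% interval -0.38 to 0.01), was not called. Class medians were -1.35 for the mitotic, -0.18 for the ER and 0.21 for the other E2s, against -0.14 over all genes.

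Without both arrays that stand apart, 18 of the 24 were called between the forms, 9 higher and 9 lower, beside 59.6% of all genes, 25.7% higher and 34% lower. UBE2T then differed by -2.04 (SE 0.11, adjusted p = 6.3e-08). The additional genes were UBE2Q2 (0.83), UBE2O (0.60) and UBE2F (0.48), which were higher on the miR-376a*A arrays, and UBE2G2 (-0.35), UBE2E2 (-0.34), UBE2G1 (-0.23) and UBE2N (-0.21), which were lower. The class medians were -1.37, -0.35 and 0.31, beside -0.12 over all genes. Scaling to the hybridisation controls moved the median of all genes to -0.81 and the split of the 18 E2 calls to 3 higher and 15 lower. Centring on medians gave 13 calls, 9 higher and 4 lower, and the poly-A controls gave 14, 5 higher and 9 lower. The splits under these 3 scalings likewise have no share over all genes beside them.

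The unedited form was compared with the control to ask what miR-376a*A changes. With all 9 arrays 0 of 24 E2 genes were called by limma, beside 0% of all 12587 genes. An unadjusted p under 0.05 was reached by 0 E2 genes and by 463 genes overall. The differences of the E2 genes ran from -0.21 for UBE2D4 to 0.23 for UBE2Q2. Intervals were narrow for some members, -0.29 to 0.10 for UBE2S, -0.39 to 0.05 for UBE2C and -0.14 to 0.28 for UBE2J2. The interval of UBE2T was wide (-0.93 to 0.52). Its SE was 0.32 with all 9 arrays and 0.12 without both arrays that stand apart, so the width depended on those arrays. The medians were -0.17 for the mitotic, 0.04 for the ER and 0.01 for the other E2s, against -0.02 over all genes.

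Several E2 genes differed between these labelled groups once the 2 arrays were left out. Then 6 of 24 were called, 4 higher and 2 lower, beside 41.9% of all genes, 19% higher and 22.9% lower. The arrays were left out for how they looked over all genes, so these p-values depend on that choice, and 2 arrays remain in each of these groups. UBE2Q2 read 403 and 413 on miR-376a*A replicates 2 and 3 and 236 and 228 on control replicates 2 and 3, while the arrays left out read 224 for miR-376a*A and 426 for control. The difference without both was 0.81 (SE 0.09, limma adjusted p = 5.8e-05), and with all arrays 0.23 (SE 0.29, adjusted p = 0.89). UBE2T read 180 and 168 against 291 and 334, with 325 and 155 on the arrays left out. It fell by 0.84 without both (SE 0.12, adjusted p = 0.00022) and stood at -0.20 with all arrays. UBE2T was thus lower than control on these miR-376a*A arrays and higher than control on the miR-376a*G arrays.

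UBE2V2 (0.70, SE 0.10, adjusted p = 0.00029), UBE2E3 (0.47, SE 0.08, adjusted p = 0.0012) and UBE2K, which builds degradation chains (0.33, SE 0.09, adjusted p = 0.012), rose without both arrays, and UBE2N fell by 0.25 (SE 0.09, adjusted p = 0.042). UBE2K read 425 and 439 against 329 and 359, with 320 and 417 on the arrays left out, miR-376a*A first. UBE2N read 753 and 732 against 866 and 904, with 902 and 690 on the arrays left out. For each of these genes the arrays left out lay near the other group's values. UBE2K's second probe set went the other way (-0.38, adjusted p = 0.022), so its direction depends on the probe set. A dimmer UBE2N probe set was lower by more than the chosen one, at -0.93 (adjusted p = 7.1e-05). UBE2C (-0.16), UBE2S (-0.16), UBE2L6 (-0.18) and UBE2Z (-0.01) were not called in this comparison without both arrays either. The ER gene UBE2G2 was at -0.36 by its chosen probe set and not called (adjusted p = 0.071). Dimmer UBE2G2 probe sets were called, at -0.82 (adjusted p = 0.00025) and -1.08 (adjusted p = 5.6e-05). Further uncalled genes had called dimmer probe sets, among them UBE2D4 (-1.07), UBE2G1 (-0.76) and UBE2Q1 (-0.88), lower, and UBE2O (1.27), higher.

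**Figure D4:**
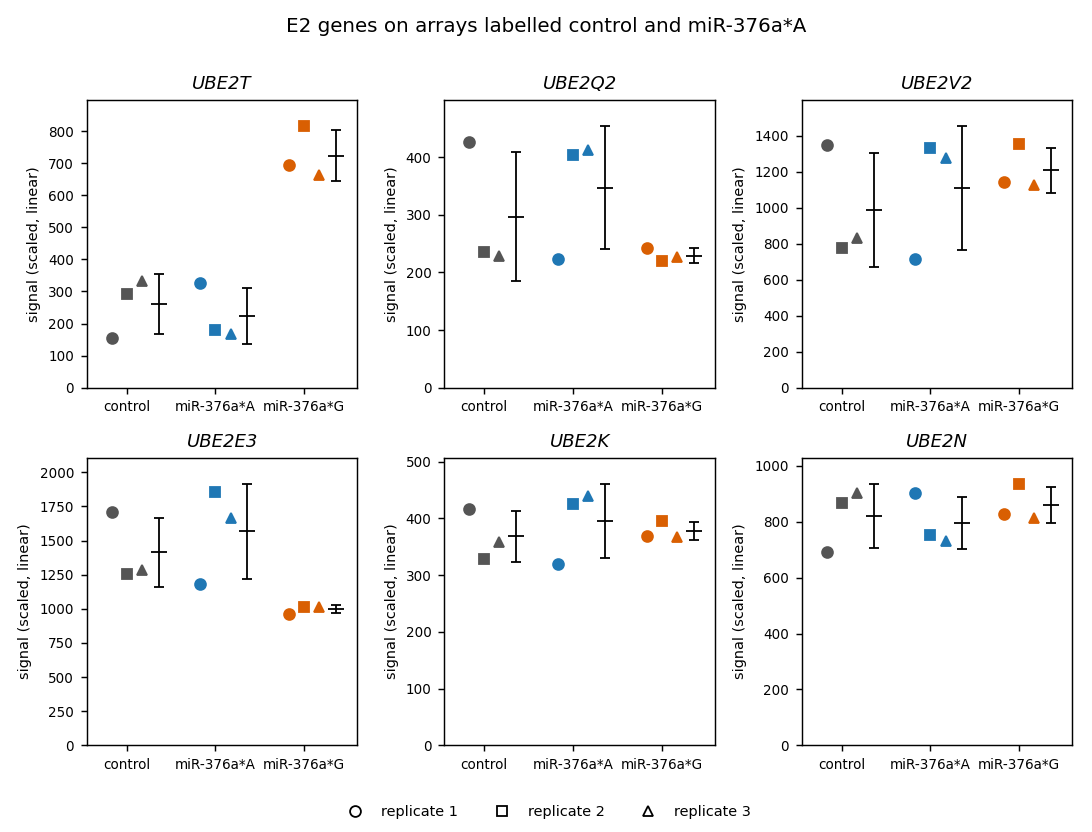
Signal (scaled, linear) per array of the 6 E2 genes called between miR-376a*A and control once both arrays that stand apart were left out, with the mean ± SD of each full labelled group. In each panel the circles (replicate 1) of control and miR-376a*A lie nearer to the other group's squares and triangles than to their own, as for UBE2Q2, where the circles read 426 for the control and 224 for miR-376a*A.

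Genes that work with these E2s were read from the same fit for miR-376a*G against control. Their counts are to be read beside the shares over all genes given above, 18% higher and 15.4% lower with all arrays and 31.2% higher and 25% lower without both arrays that stand apart. Among APC/C genes, all 12 tested substrate genes rose (median 1.71), among them the mitotic kinase genes PLK1 (2.59, SE 0.14, limma adjusted p = 1e-05) and NEK2 (2.14, SE 0.16, adjusted p = 2.9e-05), the replication licensing gene CDC6 (2.20, SE 0.14) and the ribonucleotide reductase gene RRM2 (1.49, SE 0.08). PLK1 read 384, 396 and 458 for miR-376a*G against 69.8, 74.7 and 59.4 for control. Of 16 tested genes of APC/C subunits, activators and inhibitor, 5 rose and 3 fell (median 0.10), of which the falls lay near the share over all genes. The activator gene CDC20 read 830, 967 and 920 against 111, 163 and 142 and rose by 2.71 (SE 0.19, adjusted p = 2.1e-05), and FBXO5, encoding the APC/C inhibitor EMI1, rose by 1.45 (SE 0.13, adjusted p = 7.4e-05). The subunit genes CDC26 and CDC16 fell by 1.81 (SE 0.11) and 0.71 (SE 0.13), with CDC26 at 151, 144 and 140 against 500, 491 and 546. Without both arrays the counts were 12 of 12 higher for the substrates, and 6 higher and 3 lower of 16 for the machinery, the latter near or below the shares over all genes.

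In the Fanconi pathway, which UBE2T serves, 7 of 10 tested genes of the core complex, FANCI and the USP1 deubiquitinase rose and 0 fell (median 0.88), beside 18% higher over all genes. The core genes FANCC (1.09, SE 0.17, limma adjusted p = 0.0014), FANCG (1.64, SE 0.28, adjusted p = 0.0022), FANCB (1.31, SE 0.26) and FANCE (1.26, SE 0.26) were among them, although FANCB and FANCE were dim, at 13.7 to 17.1 and 10.8 to 18.8 on the control arrays. FANCB was below the array median on every control and miR-376a*A array, and FANCE on all of these except control replicate 3. Both passed the filter for testing only through the miR-376a*G arrays. Their direction was thus largely set by the filter, and they add no support to the Fanconi counts given here. FANCL, the ligase partner of UBE2T and named for that role after its values were seen, read 484, 470 and 432 for miR-376a*G, 175, 366 and 391 for the control and 367, 195 and 170 for miR-376a*A. Its difference of 0.66 (SE 0.35, adjusted p = 0.18) was not called with all arrays, and control replicate 1 and miR-376a*A replicate 1 lay with the other group, as for UBE2T. Between miR-376a*A and control FANCL was at -0.35 with all arrays and fell by 1.05 without both (adjusted p = 2e-05). Without both arrays 9 of 10 Fanconi genes were called higher between miR-376a*G and control, beside 31.2% of all genes.

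Of 11 tested genes of ER ligases and the dislocation machinery, with which the ER E2s work, 1 rose and 2 fell (median -0.11), and 2 rose and 5 fell without both arrays. These 3 and 7 calls lay near the shares over all genes, 33.4% and 56.1%. AUP1, which recruits UBE2G2 to the ER membrane, rose by 0.60 (SE 0.14, limma adjusted p = 0.011). DERL2 and SEL1L, of the dislocation channel and its adaptor, fell by 0.61 (SE 0.10) and 0.65 (SE 0.11). VCP, the segregase that pulls substrates out, was at -0.24 and not called (adjusted p = 0.066). Of 9 tested genes of ligases that use the DNA damage tolerance E2s, with their target PCNA, 3 rose and 0 fell (median 0.28), and 3 rose and 3 fell without both arrays (median 0.13). With all arrays this count lay at the 33.4% called over all genes. RAD18 (1.45, SE 0.18, adjusted p = 0.00046) and PCNA (0.70, SE 0.11, adjusted p = 0.0013) rose, as did RNF40 (1.04, SE 0.32, adjusted p = 0.032), while RNF8 was at 0.28 and not called. RAD18 was dim, at 84.6, 103 and 101 for miR-376a*G against 30, 38.7 and 35.5 for control. PCNA read 763, 758 and 728 against 502, 429 and 453.

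At the step before the E2s, 2 of 7 tested E1 genes rose and 1 fell, and 2 rose and 2 fell without both arrays, again near the shares over all genes. UBA6, the E1 that charges UBE2Z, read 199, 224 and 194 for miR-376a*G against 398, 504 and 517 for control and fell by 1.19 (SE 0.16, limma adjusted p = 0.00061). The SUMO E1 subunit gene SAE1 rose by 0.95 (SE 0.20, adjusted p = 0.0057) and the autophagy E1 gene ATG7 by 0.66 (SE 0.20, adjusted p = 0.031), while MOCS3 was at 0.40 and not called. Of 8 E2-like genes with other symbols, 2 rose and 0 fell with all arrays, while 3 rose and 3 fell without both. The first of these counts lay near the 33.4% called over all genes. With all arrays those that rose were ATG3, the E2 of the autophagy conjugation system (0.72, SE 0.13, adjusted p = 0.003), and CDC34, the cell cycle E2 of the SCF ligases (0.95, SE 0.24, adjusted p = 0.014). ATG10 was at -1.13 and UFC1 at 0.27, neither called. CDC34 read 886, 916 and 956 for miR-376a*G, 341, 581 and 543 for the control and 502, 351 and 288 for miR-376a*A, with both arrays that stand apart again on the other group's side. The ubiquitin gene UBB was at 0.01 (95% interval -0.21 to 0.22).

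**Figure D5:**
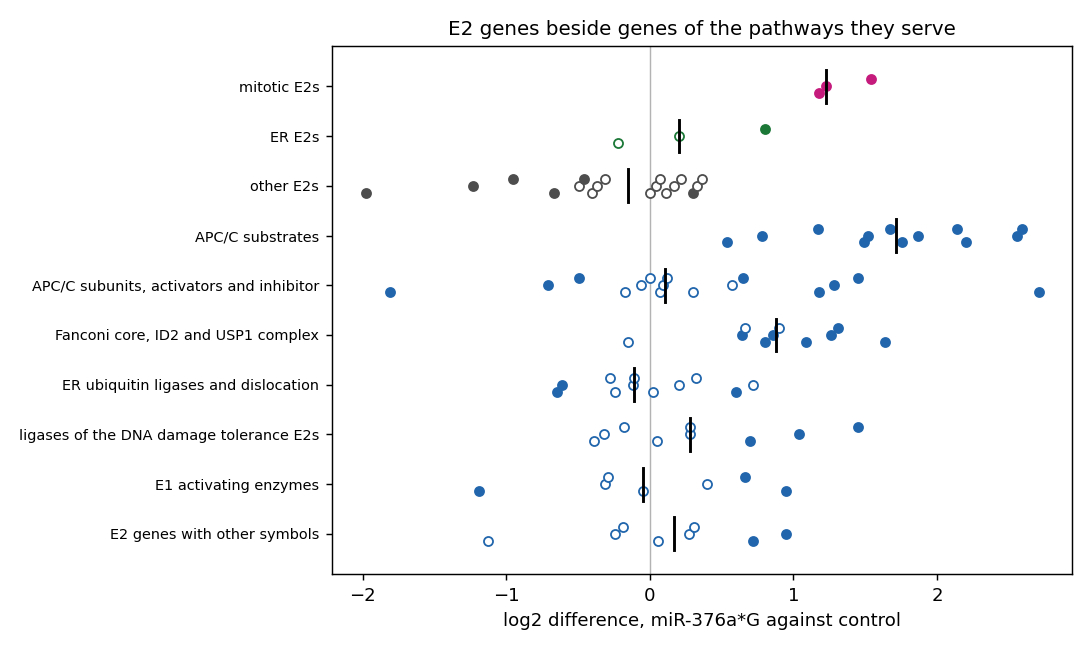
Log2 differences between miR-376a*G and control for the E2 classes and for the lists of genes that work with them, 1 point per tested gene, filled where the limma adjusted p was under 0.05, with a bar at each list's median. All 12 points of the APC/C substrates are filled and lie above 0, whereas APC/C machinery has points on both sides, from CDC26 at -1.81 to CDC20 at 2.71.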

How the data were processed

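The authors deposited 1 linear intensity per probe set for 54675 probe sets on each of 9 Affymetrix arrays. The submitters' processing notes name GCOS 1.4.0.036, and how probes were summarised is not given in the sources used here. Scaling had been applied before deposit: every array had a mean of 100.01 once its top and bottom 2% were trimmed, so a change in total messenger RNA cannot be seen. Per the labels' protocols, RNA was extracted with Trizol, spiked with poly-A controls and labelled with biotin-ULS. The number of arrays, 3 per group, limits the precision.

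Probe sets of 1 gene (41097) took their names from GEO's platform annotation, and the brightest per gene was kept; 1801 probe sets of several genes and 11777 not listed there were left out. Genes with a signal above the array's median on at least 3 arrays were tested. Values were log2(signal + 1), a scale that understates changes of dim genes. Linear models with 1 coefficient per group were fitted to all 9 arrays with limma 3.58.1 in R 4.3.3 (6 residual degrees of freedom, eBayes with an intensity trend, two-sided p, Benjamini-Hochberg over 12587 genes, threshold 0.05). The steps were tested on simulated data.

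The members, classes, lists and alternatives were chosen with earlier results of these data known. Named were the mitotic and ER genes, every other E2 gene called with all arrays or without both arrays that stand apart, the brightest of the rest, those whose probe sets disagree, and up to 4 genes of each related list by p between miR-376a*G and control. FANCL was named after its values were seen. Class medians have no test, since genes are not replicates. Alternatives changed the array weighting, the arrays, the pseudocount (16 or 64), the filter, the normalization, the probe set rule, the intensity trend and the replicate block, and left out each array in turn. Same-numbered arrays did not deviate together from their group means: the correlations were -0.88, -0.61 and -0.56 between miR-376a*A and control, 0.01, -0.01 and -0.17 between miR-376a*G and control, and 0.00, -0.08 and 0.05 between the forms. The values between miR-376a*A and control cannot decide on pairing, because both replicates 1 there lay with the other group. With the remaining values at -0.17 to 0.05, the numbers were not taken as pairs.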

Additional observations from a re-analysis of the deposited data

How the results depend on the processing

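Called E2 genes kept to within 1.5 times of the counts given under another pseudocount, no filter, quantile normalization, centred arrays, poly-A controls, the mean of all probe sets, no intensity trend and each array left out in turn (0 for miR-376a*A against control, 9 to 13 for miR-376a*G against control, 10 to 14 between the forms). Without both arrays that stand apart the counts were 6, 16 and 18 in the same order; with limma's array weights, which were 0.154 and 0.165 for those arrays, they were 9, 17 and 17; scaled to the hybridisation controls they were 0, 16 and 18. The replicate block gave 0, 9 and 10 calls, losing UBE2Q1 against control (0.30, adjusted p = 0.088) and UBE2E3 between the forms (0.63, adjusted p = 0.057) and no other. Shares over all genes are given only with all 9 arrays and without both arrays that stand apart. The counts under the other alternatives therefore cannot be set against a background.

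Medians against control moved as follows. For miR-376a*G the mitotic median was 1.15 with a pseudocount of 64, 1.00 with centred arrays, 1.63 with hybridisation and 1.53 with poly-A controls. The ER median was -0.01 without both arrays, -0.00 with weights, -0.04 with centred arrays, 0.60 and 0.50 with hybridisation and poly-A controls, 0.69 with the mean of probe sets, and -0.01 to 0.30 with 1 array left out (-0.01 without control replicate 1). The median of the other E2s was -0.03, -0.05, -0.38, 0.25 and 0.15 under the first 5 of these, and -0.24 to -0.03 with 1 array left out (-0.03 without control replicate 1). The mean of probe sets takes in a UBE2G2 probe set too dim to be tested. That probe set read 29.3, 8.82 and 23.2 for miR-376a*G and 2.56, 6.05 and 2.76 for control. The tested UBE2G2 probe sets stood at 0.20, 0.21 and 0.27. For miR-376a*A the mitotic median was -0.44 and -0.05 with hybridisation and poly-A controls and -0.21 to -0.05 with 1 array left out (-0.05 without miR-376a*A replicate 3). With hybridisation controls the ER median was -0.23 and that of the other E2s -0.26; the latter was 0.15 without both arrays.

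Between the forms the mitotic median was -1.10, -2.02 and -1.53 with centred arrays, hybridisation and poly-A controls, and -1.44 to -1.31 with 1 array left out. The ER median was -0.35 without both arrays, then 0.07, -0.85 and -0.36 under those scalings, -0.62 with the mean of probe sets, and -0.35 to 0.04 with 1 array left out (-0.35 without miR-376a*A replicate 1 and 0.04 without replicate 2). The median of the other E2s was 0.32 with weights, then 0.46, -0.46 and 0.03 under those scalings. Each scaling moves all genes alike by construction. The mean of probe sets again takes in the dim UBE2G2 probe set.

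Followed for direction were genes called in the same comparison with all arrays or without both arrays that stand apart. Direction turned for the genes below, none of them called in its new direction. Genes called in neither fit could also turn, such as UBE2V2 between the forms, at -0.17 with all arrays and 0.12 without both. Against control on miR-376a*A arrays, the hybridisation controls turned UBE2E3 (-0.13), UBE2K (-0.18), UBE2Q2 (-0.04) and UBE2V2 (-0.11), the poly-A controls UBE2N (0.08), and 1 array left out UBE2T (-0.54 to 0.01), UBE2N (-0.16 to 0.03) and UBE2V2 (-0.00 to 0.45). Against control on miR-376a*G arrays, UBE2J1 turned with hybridisation (0.18) and poly-A controls (0.08), UBE2F with hybridisation controls (0.03), UBE2E2 with centred arrays (-0.01) and UBE2V2 with the mean of probe sets (-0.04). Between the forms, hybridisation controls turned UBE2A (-0.22), UBE2E3 (-0.04), UBE2Q2 (-0.13), UBE2F (-0.30) and UBE2O (-0.21), and centred arrays UBE2G2 (0.07), UBE2N (0.13) and UBE2G1 (0.05); UBE2G2 lay between -0.35 and 0.04 with 1 array left out. The cause of these changes was not tested. Dim E2 genes such as UBE2QL1 and UBE2U had no usable signal over background.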

Other observations

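Probe sets assigned to several genes entered no comparison, but 4 of them include UBE2V1, an inactive E2 variant that pairs with UBE2N, together with its neighbour PEDS1. One of these, which does not list UBE2V2, read 452, 465 and 394 on the arrays labelled miR-376a*A, 381, 432 and 410 on the control arrays and 215, 241 and 244 on the miR-376a*G arrays. The 3 that also list UBE2V2 did not share that order: one read 891, 900 and 957 on miR-376a*G arrays against 820, 792 and 703 on control arrays. Which of the listed genes each signal belongs to was not tested.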
